A study of Mus musculus with 9 samples.

Results

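The 90 genes described here encode subunits of the respiratory chain and of ATP synthase, with a few factors that assemble complex I. A gene was taken when its annotated symbol began with Nduf, Uqcr, Atp5, Cox4, Cox5, Cox6, Cox7 or Cox8, or was Sdha, Sdhb, Sdhc or Sdhd, and when a probe set on the array carried that symbol alone. They were 90 of the 18193 genes measured and lay on 19 chromosomes. By complex there were 34 subunit genes of complex I, 8 assembly factor genes of complex I (the Ndufaf genes), 4 genes of complex II, 8 of complex III, 19 of complex IV and 17 of ATP synthase. Ndufa4 and its paralogue Ndufa4l2 were counted under complex IV, because the NDUFA4 protein is now placed there.

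The samples were cultures of Neuro2a, an established mouse neuroblastoma line, harvested after 48 h with an siRNA against Myt1 (siMyT1), an siRNA that targets LSD1, the histone demethylase made by Kdm1a (siLSD1), or a control siRNA (siControl). Each of the 3 groups had 3 arrays, 9 in all, and all came from the same line after the same time. Myt1 encodes a zinc finger transcription factor of developing neurons, and LSD1 removes methyl groups from histone H3 lysines. The labels name no further allele or agent and do not say whether replicates were separate cultures, so the p-values measure only the spread between these samples, which may be technical.

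The respiratory chain sits in the inner mitochondrial membrane. Complex I (NADH dehydrogenase) and complex II (succinate dehydrogenase, also an enzyme of the citrate cycle) pass electrons to coenzyme Q, complex III passes them to cytochrome c, and complex IV (cytochrome c oxidase) passes them to oxygen. Complexes I, III and IV pump protons as they do so, and ATP synthase uses the returning protons to make ATP. The complexes are built from subunits of both nuclear and mitochondrial genes; all the genes below are nuclear. Many nuclear genes of the chain have promoters that bind NRF-1 and factors of the ETS family such as GABP. Several subunits of complex IV exist as isoforms from separate genes, and some of those isoforms are best known from striated muscle, lung or testis.

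The promoters of 5 of the called genes are shown. Cox5a, Ndufa4 and Ndufaf4 differed between a knockdown and siControl, and Atp5k and Sdhd differed between the knockdowns. These calls of Ndufa4, Atp5k and Sdhd were lost in 9, 7 and 9 of 18 alternative analyses. Atp5mpl, which had the largest change, and Cox6a2 were also called against siControl but had no window in the promoter source used. Each line is the 250 bases before the annotated start, 5′ to 3′ on the gene's own strand, from RefSeq on GRCm38.p6. The windows lie at chr9:57520982-57521231 on the plus strand for Cox5a, chr6:11907451-11907700 on the minus strand for Ndufa4, chr4:24897833-24898082 on the plus strand for Ndufaf4, chr5:108434400-108434649 on the minus strand for Atp5k and chr9:50603850-50604099 on the minus strand for Sdhd. Capitals mark a match to the NRF-1 motif (GCGC, then any base, then TGCGC) or to the ETS motif (CCGGAAG) on either strand.
Cox5a: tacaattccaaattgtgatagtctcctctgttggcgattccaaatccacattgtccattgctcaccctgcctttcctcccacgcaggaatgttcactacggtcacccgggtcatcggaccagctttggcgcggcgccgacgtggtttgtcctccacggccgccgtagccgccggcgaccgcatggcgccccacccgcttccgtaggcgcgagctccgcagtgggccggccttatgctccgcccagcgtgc
Ndufa4: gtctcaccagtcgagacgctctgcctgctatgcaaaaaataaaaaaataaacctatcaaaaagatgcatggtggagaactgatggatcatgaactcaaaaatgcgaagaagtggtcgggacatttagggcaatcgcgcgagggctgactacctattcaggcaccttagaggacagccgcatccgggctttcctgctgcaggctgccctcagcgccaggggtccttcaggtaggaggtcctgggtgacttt
Ndufaf4: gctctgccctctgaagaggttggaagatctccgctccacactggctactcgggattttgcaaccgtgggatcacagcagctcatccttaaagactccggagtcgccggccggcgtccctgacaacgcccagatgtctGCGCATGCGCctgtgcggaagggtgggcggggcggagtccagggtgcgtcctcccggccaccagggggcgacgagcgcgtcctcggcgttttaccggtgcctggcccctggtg
Atp5k: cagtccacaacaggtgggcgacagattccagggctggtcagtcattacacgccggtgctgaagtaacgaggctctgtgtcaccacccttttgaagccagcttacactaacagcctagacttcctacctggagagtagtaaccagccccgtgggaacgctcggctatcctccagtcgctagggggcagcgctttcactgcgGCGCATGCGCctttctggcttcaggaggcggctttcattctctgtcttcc
Sdhd: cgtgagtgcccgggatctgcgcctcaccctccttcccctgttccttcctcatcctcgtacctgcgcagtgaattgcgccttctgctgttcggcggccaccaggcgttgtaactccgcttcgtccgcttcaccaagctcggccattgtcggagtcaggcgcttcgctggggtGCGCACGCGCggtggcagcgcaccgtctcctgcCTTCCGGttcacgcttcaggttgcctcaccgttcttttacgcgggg

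The windows of Ndufaf4 and Atp5k each held 1 match to the NRF-1 letters, and that of Sdhd held 1 match to NRF-1 and 1 to ETS. The windows of Cox5a and Ndufa4 held neither set of letters. A window in the RefSeq table was found for 74 of the 90 genes. Of these 74 genes, 12 (16.2%) held the NRF-1 letters, against 5.84% of 17492 protein-coding genes, and 14 (18.9%) held the ETS letters, against 10.2%. The letters AAGTTT, the core that zinc fingers of the Myt1 family are known to bind, stood in 6 of the 74 (8.11%), against 14.1% of protein-coding genes. The NRF-1 letters were present in 4 of 31 complex I genes with a window, 1 of 7 assembly factor genes, 2 of 3 complex II genes, 0 of 5 complex III genes, 1 of 13 complex IV genes and 4 of 15 ATP synthase genes. Both strands were searched, a window was counted once for each motif, and no motif contains another. These matches are descriptions of sequence, and no binding was measured.

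Both siRNAs lowered their targets. Myt1 read 0.625, 0.882 and 0.474 units in siMyT1, 7.09, 7.59 and 6.16 in siLSD1 and 4.60, 5.27 and 4.82 in siControl, which put the siMyT1 mean at 13.5% of the siControl mean (log2 difference -2.60, adjusted p = 1.25e-06 by limma). Its siLSD1 arrays all lay above siControl, with a log2 difference of 0.49 and an adjusted p of 0.0643, and 8 alternatives, all 3 scalings among them, called it higher (adjusted p between 0.00917 and 0.0373). Kdm1a read 29.9, 30.1 and 32.8 units in siMyT1, 4.80, 4.05 and 4.63 in siLSD1 and 28.1, 30.1 and 28.9 in siControl, and was lower in siLSD1 by a log2 difference of -2.64 (adjusted p = 3.01e-10). The cells' identity was checked with 9 genes of the sympathetic neuroblast lineage, such as Hand2 and Phox2a, and all 9 averaged over 3 units. Their summed level was 194 to 207 units in siMyT1, 260 to 288 in siLSD1 and 242 to 258 in siControl. Of 5 fibroblast, 2 astrocyte, 3 leukocyte, 3 epithelial and 3 striated muscle markers, 0 averaged over 3 units. In such whole cultures, fewer cells of a kind and less RNA per cell cannot be told apart. Array medians lay between 0.302 and 0.424 units and were highest in siMyT1 replicate 2. The part that such differences between arrays had in the results below was not tested.

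Few of the respiratory chain and ATP synthase genes passed the threshold against siControl. A gene is called changed when its limma p, adjusted over all 18193 genes, was under 0.05. In siMyT1 against siControl, 2 of the 90 were higher (Cox6a2 and Ndufaf4), where 5.12% of all genes were, and 2 were lower (Atp5mpl and Ndufa4), where 2.29% of all genes were. That is 4.44% of the 90 in either direction, against 7.41% of all genes. In siLSD1 against siControl, 0 were higher, where 3.97% of all genes were, and 1 was lower (Cox5a), where 4.93% of all genes were. That is 1.11% in either direction against 8.9%, and 10 of the 90 (11.1%) had an unadjusted limma p under 0.05, against 21.1% of all genes. In siMyT1 against siControl 16 (17.8%) had one, against 20.4% of all genes. In siMyT1 against siLSD1 22 (24.4%) had one, against 30.3% of all genes. The comparisons share arrays, both knockdowns being set against the same siControl arrays, so they are not independent.

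The small number of calls did not come with wide errors. The 95% interval of the difference lay wholly inside a 1.5-fold change for 87 of the 90 genes (96.7%) in siMyT1 against siControl, compared with 70.3% of all genes. In siLSD1 against siControl it did so for 86 (95.6%), compared with 70%. Both counts include Cox6b2 and Cox8b, whose mean levels lay under the constant added before taking logs. That constant shrinks the differences of such dim genes, so their intervals do not bound their fold changes. In siMyT1 the Cox8b mean was 198% of the siControl mean, yet its log2 interval was -0.13 to 0.48. The median width of the interval to each side was 0.16 on the log2 scale for the 90 and 0.29 for all genes. These genes are mostly bright: their mean levels ran from 0.0429 to 136 deposited units with a median of 31.6, and 11 lay under 3 units. The middle of the 90 stood at a log2 difference of 0.02 in siMyT1 against siControl (quartiles -0.07 and 0.10), where the median of all genes was 0.05. In siLSD1 against siControl it stood at 0.03 (quartiles -0.04 and 0.09), where that of all genes was -0.03. The sign of the first median turned to -0.02 with quantile normalization, -0.03 with median centring and -0.01 with cyclic loess. The median of all genes moved as well, to 0.01 under each of these scalings.

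**Figure D1:**
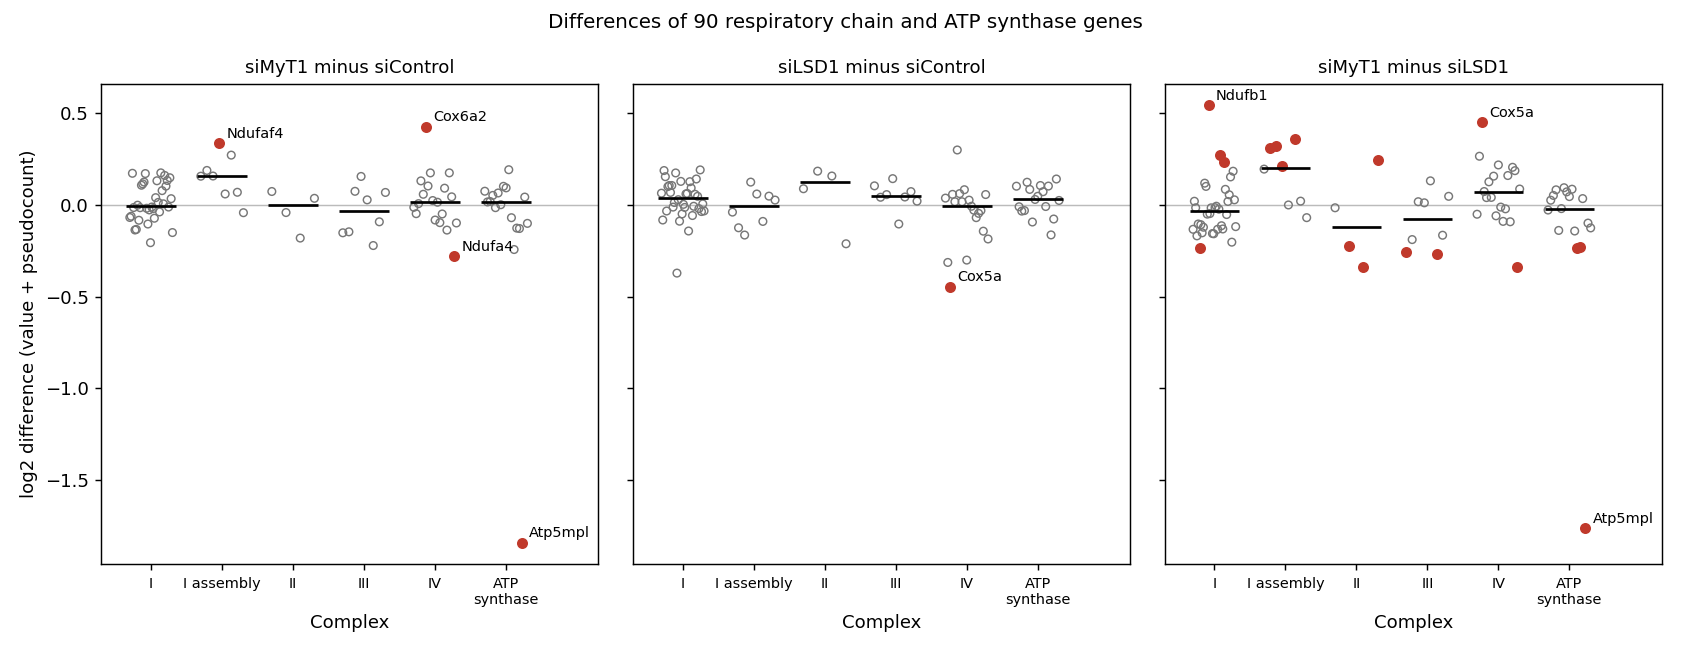
Log2 differences of the 90 genes by complex, with 1 panel for each comparison; each point is a gene, the bar is the median of the complex, and filled red points passed the adjusted threshold. Most points lie close to 0, and Atp5mpl stands alone at -1.84 in siMyT1 minus siControl and at -1.76 in siMyT1 minus siLSD1.

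The counts, and how they stood to all genes, depended on the scaling between arrays. In siMyT1 against siControl the lower calls were 2 as deposited, close to the share of all genes. With quantile normalization 11 of the 90 (12.2%) were lower, against 6% of all genes, and with cyclic loess 9 (10%) were, against 5.93%. With median centring 1 (1.11%) was lower, against 2.75% of all genes. The higher calls in siMyT1 were 3 with quantile normalization, 2 with median centring and 3 with cyclic loess, which is 2.22% to 3.33% of the 90, against 7.52%, 3.64% and 7.53% of all genes. In siLSD1 against siControl the higher calls were 4 with quantile normalization (4.44%, against 7.83% of all genes), 1 with median centring (1.11%, against 6.06%) and 7 with cyclic loess (7.78%, against 8.37%). The lower calls there were 2, 1 and 2 under the same scalings, against 7.58%, 3.1% and 7.42% of all genes. Atp5mpl, Cox6a2 and Ndufaf4 stayed called in siMyT1 under each of the 3, Ndufa4 lost its call with median centring, and Cox5a stayed called in siLSD1 under each.

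Complex I is the entry point for electrons from NADH. On the values as deposited, 0 of its 34 subunit genes passed the threshold in either knockdown against siControl. With quantile normalization 3 were lower in siMyT1 and 2 were higher in siLSD1, where 6% and 7.83% of all genes were. With cyclic loess 2 were lower in siMyT1 and 4 were higher in siLSD1, where 5.93% and 8.37% of all genes were. With median centring 0 were called. The largest changes in siMyT1 against siControl were -0.21 (SE 0.09) for Ndufb3 and 0.18 (SE 0.07) for Ndufc2, with adjusted p of 0.224 and 0.156. Those in siLSD1 against siControl were -0.37 (SE 0.14) for Ndufb1 and 0.19 (SE 0.14) for Ndufs8, with adjusted p of 0.142 and 0.514. Ndufb1 passed as lower in siLSD1 with array weights (limma adjusted p = 0.0277). The median over the 34 was -0.01 in siMyT1 and 0.04 in siLSD1. The core subunits that carry the flavin and the iron-sulfur clusters did not pass either: Ndufv1, which binds NADH, averaged 26.9 units in siMyT1, 23.7 in siLSD1 and 24.3 in siControl, and Ndufs1, an iron-sulfur subunit, averaged 16.3, 15.4 and 15.4 in the same groups.

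The assembly factors of complex I had mostly positive differences in siMyT1. These proteins build the complex but are not part of the finished enzyme. Of the 8, 7 had positive differences from siControl in siMyT1 with a median of 0.16, where 60.9% of all genes were positive. In siLSD1 4 had positive differences with a median of -0.01, where 42.6% of all genes were positive. The siMyT1 median was 0.12 under quantile normalization, median centring and cyclic loess alike. It was uneven over arrays: the median deviation of the 8 from the siControl mean was -0.03, 0.30 and 0.14 on the siMyT1 arrays, while that of all genes was -0.04, 0.12 and 0.07 on the same arrays. On the siLSD1 arrays the 8 stood at 0.04, -0.07 and 0.06, and on the siControl arrays at 0.02, 0.04 and -0.05.

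Ndufaf4, which acts in the early assembly steps of complex I, was the 1 member of that group to pass the threshold. It read 12.84, 13.93 and 14.16 units in siMyT1, 11.95, 11.35 and 11.97 in siLSD1 and 11.46, 10.85 and 10.02 in siControl. All siMyT1 arrays lay above all others, and siLSD1 overlapped siControl. The log2 difference of siMyT1 from siControl was 0.34 (SE 0.07, adjusted p = 0.00907) and that of siLSD1 was 0.12 (SE 0.07, adjusted p = 0.32). The call was lost without the intensity trend in limma and when both probe sets of the gene were averaged (adjusted p = 0.283), since the other probe set gave -0.04.

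In complex II 0 of the 4 genes passed the threshold against siControl in either knockdown on the values as deposited, and 3 passed in at least 1 knockdown with cyclic loess. Sdha, the flavoprotein subunit, read 29.3, 32.1 and 34.1 units in siMyT1, 34.8, 29.5 and 32.2 in siLSD1 and 29.4, 31.5 and 29.7 in siControl. Its groups overlapped in every comparison. Sdhb, the iron-sulfur subunit, read 63.3, 71.1 and 73.2 units in siMyT1, 85.2, 77.3 and 80.1 in siLSD1 and 73.4, 69.3 and 70.5 in siControl. The siLSD1 arrays were the highest, at 0.18 (SE 0.07) above siControl with an adjusted p of 0.14, which was 0.0328 with quantile normalization and 0.027 with cyclic loess.

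The membrane anchors Sdhc and Sdhd, which hold the enzyme in the membrane and bind coenzyme Q, differed in which group was low. Sdhc read 25.5, 26.2 and 27.8 units in siMyT1, 35.8, 31.1 and 33.8 in siLSD1 and 28.7, 33.4 and 28.3 in siControl. The siMyT1 arrays were lowest and the other groups overlapped, with log2 differences from siControl of -0.18 (adjusted p = 0.195) in siMyT1 and 0.16 (adjusted p = 0.261) in siLSD1. The siMyT1 difference passed with quantile normalization (adjusted p = 0.00924) and cyclic loess (adjusted p = 0.00983), and the siLSD1 difference with cyclic loess (adjusted p = 0.0305) and array weights (adjusted p = 0.0488). The other probe set of Sdhc gave 0.04 in siMyT1 and 0.09 in siLSD1. Sdhd read 16.7, 19.2 and 19.3 units in siMyT1, 16.5, 14.2 and 15.6 in siLSD1 and 18.3, 18.5 and 16.9 in siControl. Here the siLSD1 arrays were lowest, at -0.21 (SE 0.08) with an adjusted p of 0.116, and siMyT1 overlapped siControl. That siLSD1 difference passed with quantile normalization, cyclic loess and array weights (adjusted p = 0.00886, 0.00951 and 0.0376). A dim other probe set of Sdhd gave 0.03 in siLSD1.

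**Figure D2:**
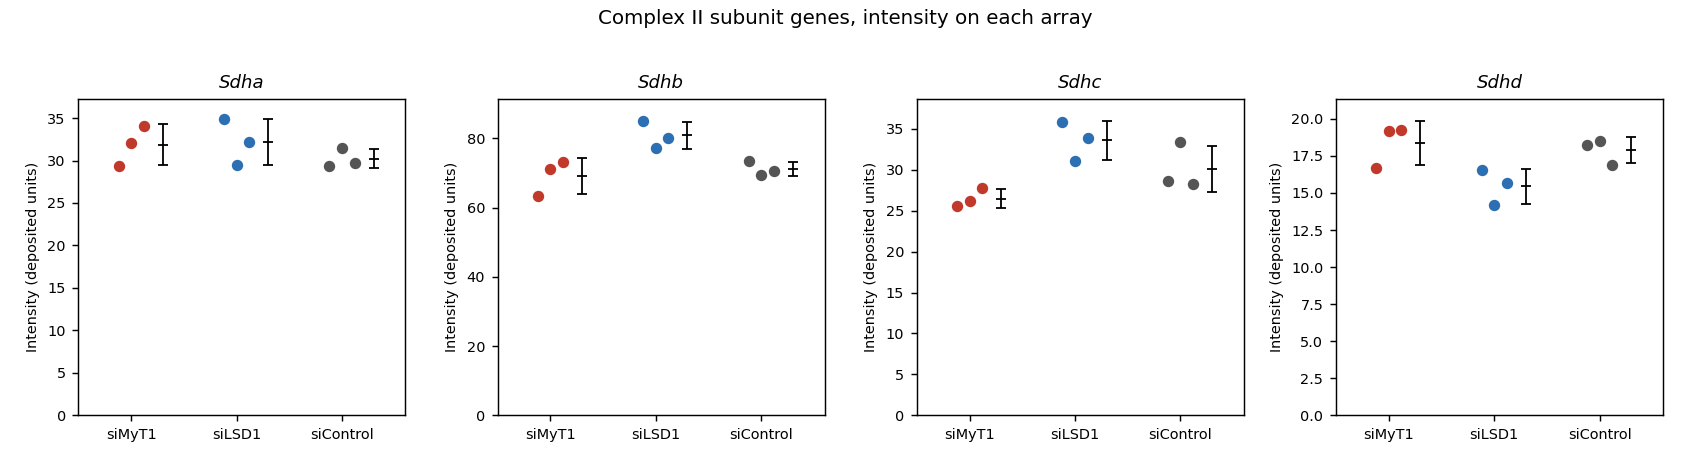
Intensity of the 4 complex II genes on each array in deposited units, with siMyT1, siLSD1 and siControl from left to right; points are arrays and the bars show the mean and SD of 3 arrays. Sdhb and Sdhc have their highest arrays in siLSD1, and Sdhd has its lowest arrays there.

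On the values as deposited, 0 of the 8 complex III genes passed the threshold against siControl in siMyT1 or siLSD1. Their medians were -0.03 and 0.05. Uqcr10 passed as lower in siMyT1 with quantile normalization (limma adjusted p = 0.0348) and cyclic loess (adjusted p = 0.028). Uqcrfs1, the Rieske iron-sulfur protein of the complex, read 25.1, 26.3 and 27.4 units in siMyT1, 33.4, 29.2 and 32.2 in siLSD1 and 30.4, 31.6 and 29.9 in siControl. Its siMyT1 arrays lay below all others, with a difference from siControl of -0.22 (SE 0.06, adjusted p = 0.0541), which passed the threshold with quantile normalization (adjusted p = 0.000478) and cyclic loess (adjusted p = 0.000522). The core proteins Uqcrc1 and Uqcrc2 had differences from siControl of 0.16 and 0.03 in siMyT1 and of 0.14 and -0.10 in siLSD1, with adjusted p between 0.282 and 0.887.

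Complex IV held 3 of the 5 genes called against siControl, each with its own pattern. Cox5a, a nuclear subunit on the matrix side of the enzyme (chromosome 9), was lower in siLSD1. It read 76.0, 82.7 and 81.6 units in siMyT1, 59.1, 59.8 and 56.5 in siLSD1 and 80.6, 82.2 and 76.3 in siControl. The siLSD1 arrays lay well below the other groups, which overlapped. The means were 80.1 ± 3.6 units in siMyT1, 58.5 ± 1.7 in siLSD1 and 79.7 ± 3.0 in siControl (SD, n = 3 arrays each), and the log2 difference of siLSD1 from siControl was -0.45 (SE 0.06, 95% interval -0.58 to -0.31, limma adjusted p = 0.000544). That of siMyT1 was 0.01 (SE 0.06, adjusted p = 0.971). The call held in all 18 alternative analyses of the comparison, and the other 2 probe sets of the gene gave -0.54 and -0.42 in siLSD1. Cox5b, the zinc-binding subunit, had differences of 0.13 in siMyT1 and 0.06 in siLSD1 and was not called.

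Ndufa4 (chromosome 6), once counted as a complex I subunit, was lower in siMyT1. It read 47.3, 55.5 and 54.5 units in siMyT1, 69.5, 66.9 and 62.2 in siLSD1 and 64.5, 62.9 and 63.3 in siControl. The siMyT1 arrays were below all others, and siLSD1 overlapped siControl. The log2 difference of siMyT1 was -0.28 (SE 0.07, adjusted p = 0.0335) and that of siLSD1 was 0.06 (SE 0.07, adjusted p = 0.748). The siMyT1 call was close to the threshold and was lost when any 1 of the 6 arrays was left out, and in 3 other alternatives (adjusted p up to 0.12).

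Cox6a2 (chromosome 7), the isoform of subunit 6a known from heart and skeletal muscle, was higher in siMyT1. It read 4.53, 5.82 and 4.63 units in siMyT1, 4.38, 4.57 and 4.64 in siLSD1 and 3.71, 4.03 and 3.24 in siControl. Both knockdowns lay above siControl on every array and overlapped each other. The difference from siControl was 0.43 (SE 0.11, adjusted p = 0.0277) in siMyT1 and 0.30 (SE 0.11, adjusted p = 0.107) in siLSD1. The siMyT1 call was lost in 7 of 18 alternatives, among them those without siMyT1 replicate 2 or 3 and without siControl replicate 1 or 3 (adjusted p up to 0.161), and the siLSD1 difference passed with each of the 3 scalings (adjusted p = 0.0127, 0.00637 and 0.0111).

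On the values as deposited, the probe sets used for the other isoform genes of complex IV did not pass the threshold in either knockdown or between them. Cox6a1, the widely expressed partner of Cox6a2, averaged 111 ± 7.6 units in siMyT1, 108 ± 6.5 in siLSD1 and 107 ± 6.5 in siControl (SD, n = 3 arrays each). Cox4i1, the common isoform of subunit 4, averaged 97.3 ± 1.8, 101 ± 4.2 and 98.2 ± 2.6 units in the same groups, and its lung isoform Cox4i2 averaged 1.03 ± 0.16, 0.825 ± 0.14 and 1.07 ± 0.17. These groups overlapped in each case. For subunit 7a, the muscle gene Cox7a1 averaged 0.698, 0.575 and 0.751 units in siMyT1, siLSD1 and siControl, and the common gene Cox7a2 averaged 92.7, 93.5 and 91.7. Cox7a2l, a factor that joins complexes III and IV, averaged 48.4, 51.3 and 51.6 on a probe set that may bind several transcripts. Both its other probe sets were lower in siMyT1 than in siLSD1, each with a difference of -0.26 (adjusted p over all probe sets = 0.0487 and 0.0279). Among the rest, Cox6b1, Cox7b2 and Cox8a differed from siControl by -0.14 to 0.10 in siMyT1 and by -0.05 to 0.06 in siLSD1. Cox8a passed as lower in siMyT1 with quantile normalization (limma adjusted p = 0.0497) and cyclic loess (adjusted p = 0.028). The testis gene Cox6b2 and the muscle gene Cox8b averaged under the pseudocount of 0.196 units, so these data hardly measured them, and Cox8c averaged 2.17, 1.84 and 2.06 units. Ndufa4l2, the paralogue of Ndufa4 that is induced by low oxygen, was also dim, at 0.653, 0.613 and 0.728 units.

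In ATP synthase 1 gene passed the threshold against siControl on the values as deposited, with a large change in siMyT1. Atp5mpl (chromosome 12) encodes a very small proteolipid of the membrane sector. It read 4.15, 5.38 and 4.82 units in siMyT1, 15.50, 16.86 and 17.61 in siLSD1 and 18.55, 18.55 and 15.70 in siControl. The siMyT1 arrays stood far below the other groups, which overlapped. Means were 4.78 ± 0.62 units in siMyT1, 16.7 ± 1.1 in siLSD1 and 17.6 ± 1.6 in siControl (SD, n = 3 arrays each), and the siMyT1 mean was 27.2% of the siControl mean, a log2 difference of -1.84 (SE 0.09, limma adjusted p = 6.37e-07). In siLSD1 the difference was -0.08 (SE 0.09, adjusted p = 0.742). The call held in all 18 alternatives, but the gene had a single probe set, so no second probe set bears on it.

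The catalytic and stalk subunits of ATP synthase had small differences. Atp5b, the catalytic beta subunit, averaged 117 units in siMyT1, 115 in siLSD1 and 116 in siControl, and Atp5a1, the alpha subunit, 77.7, 79.2 and 73.7. The 3 genes that encode the same mature c subunit of the rotor ring, Atp5g1, Atp5g2 and Atp5g3, differed from siControl by 0.07, 0.00 and 0.10 in siMyT1 and by 0.09, -0.09 and 0.03 in siLSD1. Apart from Atp5mpl, the largest changes were in the peripheral and membrane subunits. Atp5k, the e subunit that helps pair the enzyme into dimers, read 43.2, 45.8 and 44.6 units in siMyT1, 54.0, 49.0 and 54.4 in siLSD1 and 53.6, 48.7 and 56.1 in siControl. Its siMyT1 arrays lay below all others, at -0.24 (SE 0.07) against siControl with an adjusted p of 0.0515, and 6 alternatives called it lower (adjusted p between 0.0171 and 0.0435). Atp5j, a stalk subunit, had the highest difference in siMyT1, 0.19 (SE 0.07, adjusted p = 0.108). It passed with quantile normalization and cyclic loess (adjusted p = 0.0385 and 0.032), and Atp5l passed as lower with quantile normalization (adjusted p = 0.0473). In siLSD1 the extremes were Atp5o at 0.14 and Atp5md at -0.16, with adjusted p of 0.224 and 0.391.

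**Figure D3:**
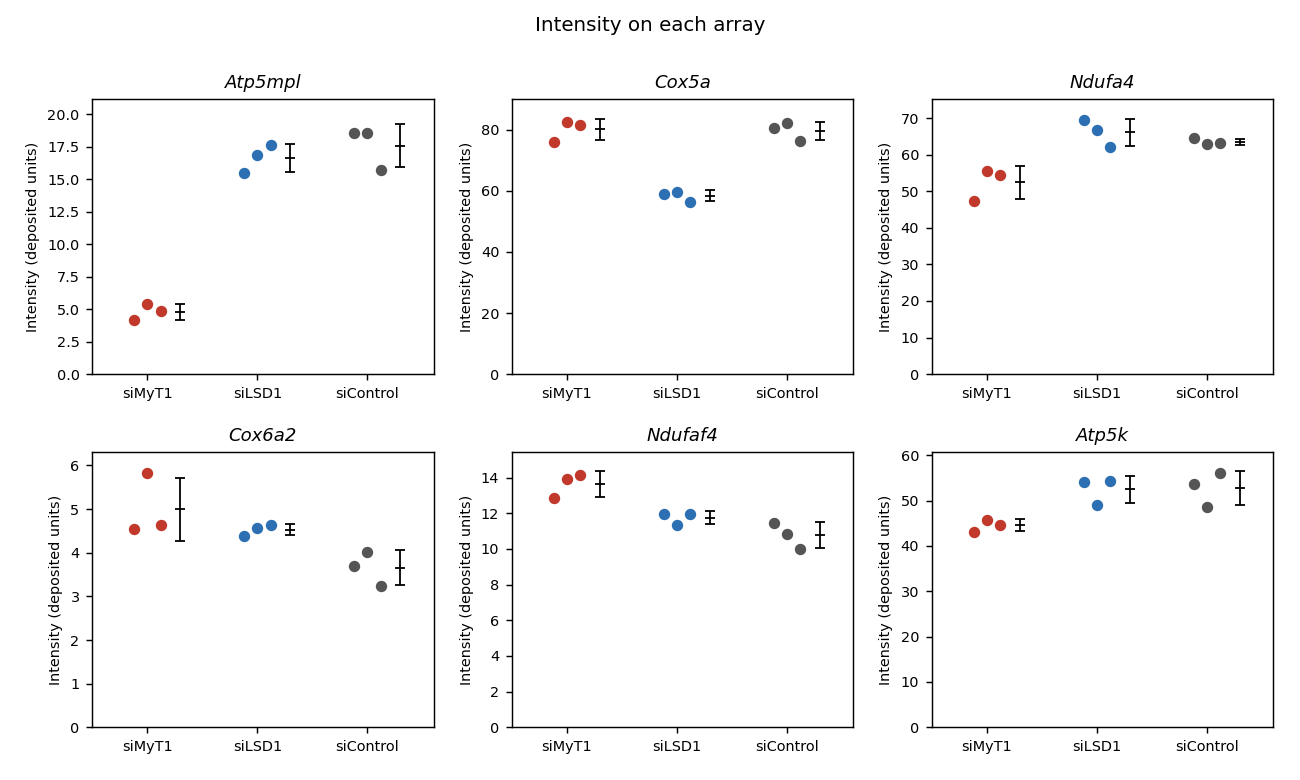
Intensity in deposited units on each array for the 5 genes called in a knockdown against siControl and for Atp5k, with siMyT1, siLSD1 and siControl from left to right; points are arrays, and the bars show the mean and SD of 3 arrays. Atp5mpl, Ndufa4 and Atp5k are lowest in siMyT1, Cox5a is lowest in siLSD1, and Cox6a2 and Ndufaf4 are highest in siMyT1.

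Set directly against each other, the knockdowns differed at 18 of the 90 genes. Of these, 9 were higher in siMyT1, where 13.2% of all genes were, and 9 were lower, where 5.58% of all genes were. The share in either direction was 20% of the 90 and 18.8% of all genes. The median difference was -0.01 for the 90 and 0.09 for all genes. Under each of the 3 scalings the share of lower calls was above that of all genes: 21 of the 90 (23.3%) against 10.6% with quantile normalization, 12 (13.3%) against 9.32% with median centring and 19 (21.1%) against 10.9% with cyclic loess. The higher calls were 8 (8.89%) against 13.3%, 2 (2.22%) against 6.86% and 8 (8.89%) against 13.1% under the same scalings. This comparison shares its arrays with those above, so its calls are not separate evidence for them.

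The calls are given here by complex, and no difference between complexes was tested. The assembly factors of complex I held 4 of the 9 genes that were higher in siMyT1 and 0 of the 9 that were lower. Ndufaf6 had 4.93, 5.72 and 4.64 units in siMyT1, against 4.11, 3.78 and 3.85 in siLSD1, a log2 difference of 0.36 (SE 0.09, adjusted p = 0.0165). Ndufaf3 had 7.50, 9.26 and 8.09 units in siMyT1, against 7.09, 6.08 and 6.56 in siLSD1, a difference of 0.32 (adjusted p = 0.0181). Ndufaf2 and Ndufaf4 differed by 0.31 and 0.21 (adjusted p = 0.0376 and 0.0426). The median over the 8 assembly factors was 0.20 as deposited and 0.08 with median centring, which left 0 of the 4 called. With siMyT1 replicate 2 left out, which had the highest overall array median, or without siLSD1 replicate 3, 0 of the 4 were called. Ndufaf2 was the 1 gene still called without siLSD1 replicate 2, and Ndufaf3 and Ndufaf6 were those still called without siMyT1 replicate 3 or siLSD1 replicate 1, with adjusted p over all alternatives up to 0.154 for Ndufaf2, 0.0968 for Ndufaf3, 0.793 for Ndufaf4 and 0.0869 for Ndufaf6.

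Complex I subunits went both ways. Ndufb1, Ndufb8 and Ndufc2, accessory subunits of the membrane arm, were higher in siMyT1 than in siLSD1 by 0.54, 0.27 and 0.23 (SE 0.14, 0.07 and 0.07; adjusted p = 0.0176, 0.0174 and 0.0305). Ndufb1 was dim, with 1.67, 2.38 and 1.92 units in siMyT1, against 1.34, 1.42 and 1.13 in siLSD1. Ndufa3, another small membrane subunit, was lower, with 27.6, 27.8 and 28.1 units in siMyT1, against 33.8, 30.9 and 33.6 in siLSD1, a difference of -0.23 (adjusted p = 0.0109). Each of these 4 calls was lost without some single array: siLSD1 replicate 3 for Ndufb1 and Ndufa3, siMyT1 replicate 2 for Ndufb1, Ndufb8 and Ndufc2, siMyT1 replicate 3 for Ndufb8 and Ndufc2, siLSD1 replicate 1 for Ndufb8, and siLSD1 replicates 2 and 3 for Ndufc2. The adjusted p over all alternatives reached 0.0821 for Ndufb1, 0.361 for Ndufb8, 0.533 for Ndufc2 and 0.806 for Ndufa3.

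In complex II, 3 of 4 genes differed between the knockdowns and not all in 1 direction. Sdhc and Sdhb were lower in siMyT1 than in siLSD1, at -0.34 (SE 0.08, adjusted p = 0.00732) and -0.23 (SE 0.07, adjusted p = 0.0408), and Sdhd was higher, by 0.25 (SE 0.08, adjusted p = 0.0373). Sdha differed by -0.02 (95% interval -0.18 to 0.15). The Sdhc call was lost in 1 of 18 alternatives, the mean of its probe sets (adjusted p = 0.0554), whereas those of Sdhb and Sdhd were lost in 8 and 9, with adjusted p up to 0.137 and 0.905. The other probe set of Sdhc, which averaged 18.4 units in siMyT1 and 19.0 in siLSD1, differed by -0.05 (limma adjusted p over all probe sets = 0.785). A dim other probe set of Sdhd gave -0.19, opposite in sign to the one used (adjusted p over all probe sets = 0.574). Leaving out any array but siMyT1 replicate 3 and siLSD1 replicate 2 cost the Sdhb call, and leaving out any but siMyT1 replicate 1 and siLSD1 replicate 1 cost the Sdhd call.

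Both called genes of complex III were lower in siMyT1. Uqcrfs1 differed by -0.26 (SE 0.06, adjusted p = 0.0107), and Uqcr10, a small subunit beside cytochrome c1, had 12.8, 13.3 and 14.7 units in siMyT1, against 17.3, 15.5 and 16.0 in siLSD1, a difference of -0.26 (SE 0.07, adjusted p = 0.0198). In complex IV, Cox5a was higher in siMyT1 by 0.45 (SE 0.06, adjusted p = 0.00028) and Ndufa4 was lower, at -0.34 (SE 0.07, adjusted p = 0.00536), and both calls held in all 18 alternatives. In ATP synthase all 3 called genes were lower in siMyT1: Atp5mpl at -1.76 (SE 0.09, adjusted p = 1.62e-07), Atp5k at -0.23 (SE 0.07, adjusted p = 0.0309) and Atp5l, the g subunit that also supports dimers, at -0.23 (SE 0.06, adjusted p = 0.0203). Atp5l had 27.4, 30.6 and 31.1 units in siMyT1, against 34.9, 35.6 and 33.9 in siLSD1. The call of Uqcrfs1 was lost without siLSD1 replicate 3 (adjusted p up to 0.0573 over all alternatives), that of Uqcr10 without siMyT1 replicate 1 or 2 or siLSD1 replicate 1 or 3 (up to 0.142), that of Atp5l without siMyT1 replicate 1 or siLSD1 replicate 2 (up to 0.0838), and that of Atp5k without any array but siLSD1 replicate 2 (up to 0.127).

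**Figure D4:**
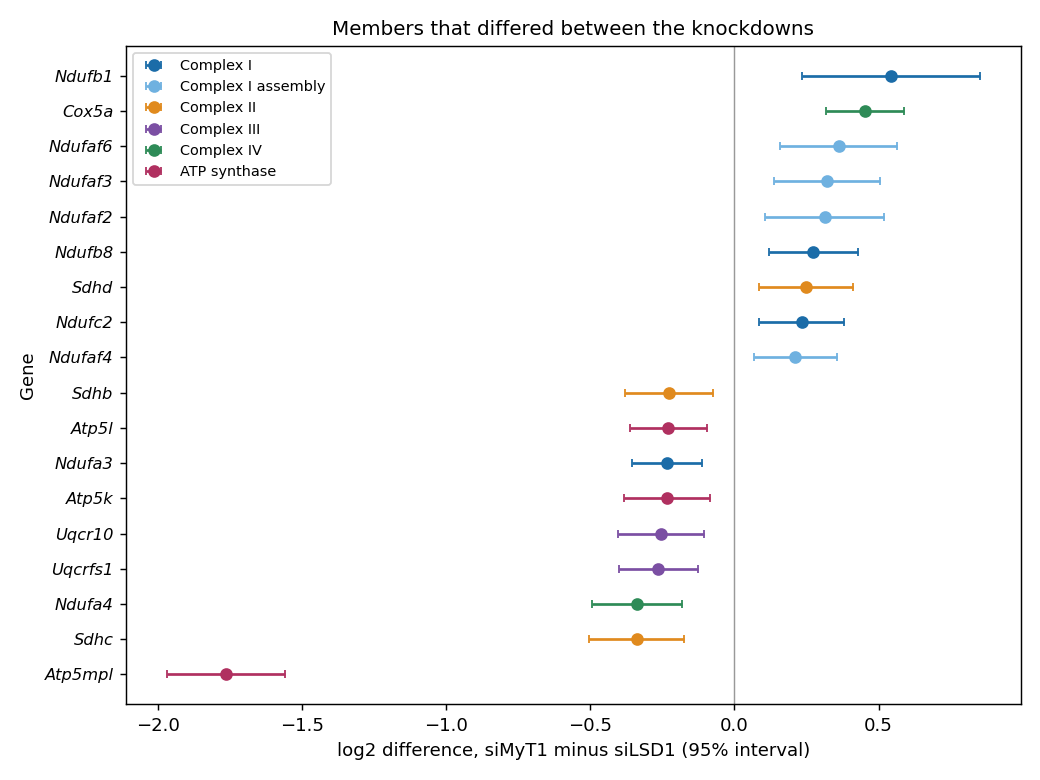
Log2 difference with its 95% interval for the 18 genes that differed between the knockdowns, siMyT1 minus siLSD1, coloured by complex. The 4 Ndufaf genes lie to the right of 0, the called genes of complex III and ATP synthase lie to the left, and complexes I, II and IV have genes on both sides.

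The medians of whole complexes depended on the scaling. In siMyT1 minus siLSD1 the medians were -0.03 for complex I subunits, 0.20 for the assembly factors, -0.12 for complex II, -0.08 for complex III, 0.07 for complex IV and -0.02 for ATP synthase. With median centring they were -0.16, 0.08, -0.25, -0.20, -0.05 and -0.15 in the same order, and the median of all genes, 0.09 as deposited, was -0.04. As deposited, 12 of 34 complex I genes, 8 of 17 ATP synthase genes and 11874 of all 18193 genes had positive differences. After centring, 5 of 34, 0 of 17 and 7880 of 18193 had. Relative to the median of all genes, complex I stood at -0.12 and ATP synthase at -0.11 as deposited. Median centring moves every gene of an array alike, so it could not change these offsets. They were -0.08 and -0.05 with quantile normalization, and -0.10 and -0.06 with cyclic loess. On single arrays, the median deviation of the 90 genes from the siControl mean was -0.04, 0.04 and 0.09 in siMyT1, 0.09, -0.02 and 0.02 in siLSD1 and 0.02, 0.02 and -0.02 in siControl. The 3 groups overlapped in it.

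**Figure D5:**
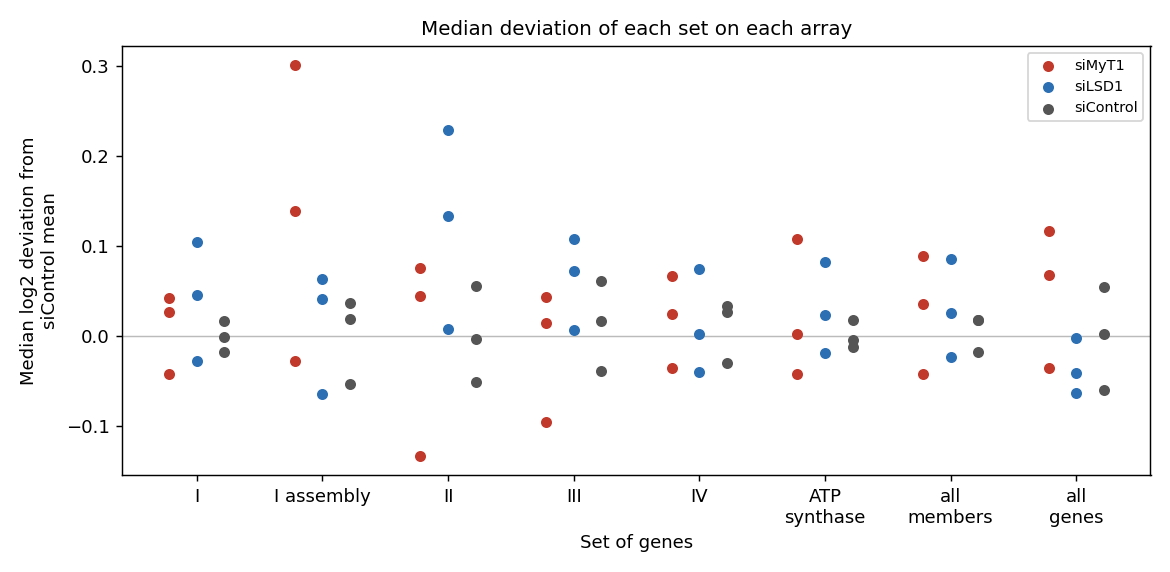
Median log2 deviation from the siControl mean of each complex, of the 90 genes and of all genes, with 1 point for each array; siMyT1, siLSD1 and siControl run from left to right within each set. The assembly factors stand highest on siMyT1 replicate 2, at 0.30, where the median of all genes is also highest, at 0.12, and the groups overlap in most sets.

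Genes that work beside the chain were looked at in 8 lists. Among 43 further assembly factors, siMyT1 had 5 higher and 0 lower relative to siControl, where 5.12% and 2.29% of all genes were. In siLSD1 3 were higher and 1 lower, where 3.97% and 4.93% of all genes were. Relative to siLSD1, siMyT1 had 7 higher and 1 lower, where 13.2% and 5.58% of all genes were. Cox18, which inserts a mitochondrially made subunit of complex IV into the membrane, averaged 5.31 ± 0.51 units in siMyT1, 5.22 ± 0.31 in siLSD1 and 3.76 ± 0.22 in siControl (SD, n = 3 arrays each). It was higher than siControl in both, by 0.48 (adjusted p = 0.00602) and 0.45 (adjusted p = 0.00514). Tmem126a and Surf1, which act in building complexes I and IV, were higher in siMyT1 than in siControl by 0.28 and 0.29 (adjusted p = 0.00831 and 0.0209), and Surf1 was also higher in siLSD1 by 0.23 (adjusted p = 0.049). Uqcc1, an assembly factor of complex III, was higher than siControl in both siMyT1 and siLSD1, by 0.45 (adjusted p = 0.0357) and 0.55 (adjusted p = 0.0106). In siLSD1, Oxa1l, an insertase of the inner membrane, was lower, at -0.31 (adjusted p = 0.0436). Nubpl, which delivers iron-sulfur clusters to complex I, and Tmem70, an assembly factor of ATP synthase, were higher in siMyT1 than in siLSD1 by 0.51 and 0.40 (adjusted p = 0.00201 and 0.00455).

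Enzymes that feed electrons into the chain were also counted. Of 18 genes of the citrate cycle and pyruvate dehydrogenase, 1 was higher in siMyT1 and 1 was lower in siLSD1, each against siControl, where 5.12% and 4.93% of all genes were. Relative to siLSD1, siMyT1 had 8 higher and 0 lower, where 13.2% of all genes were higher. The median of the 18 in that comparison was 0.16, and that of all genes was 0.09. Ogdh, the first enzyme of the 2-oxoglutarate dehydrogenase complex, averaged 10.4 ± 0.94 units in siMyT1, 6.72 ± 0.45 in siLSD1 and 11.7 ± 0.91 in siControl. It was lower in siLSD1 than in siControl, at -0.78 (SE 0.08, adjusted p = 6.39e-05). Suclg2, a subunit of succinyl-CoA ligase, was higher in siMyT1 than in siControl by 0.36 (adjusted p = 0.00888), and Idh2, the mitochondrial NADP isocitrate dehydrogenase, was higher in siMyT1 than in siLSD1 by 0.32 (adjusted p = 0.0129). Of 7 electron carriers and related dehydrogenases, siMyT1 had 4 higher and 0 lower relative to siLSD1, where 13.2% and 5.58% of all genes were. They included Etfa, Etfb and Etfdh, which pass electrons from fat oxidation to coenzyme Q, at 0.42, 0.41 and 0.30 (adjusted p = 0.00206, 0.00537 and 0.00905). Against siControl, Etfa was the 1 called gene of that list in siMyT1 (0.32, adjusted p = 0.0236), and 0 of 7 were called in siLSD1.

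The regulators of respiratory genes and of mitochondrial DNA included 21 genes. In siMyT1 1 was higher than in siControl, where 5.12% of all genes were, namely Ssbp1, a single-strand binding protein of mitochondrial DNA (0.43, adjusted p = 0.00808). In siLSD1 3 were lower, where 4.93% of all genes were, namely Mterf3 (-0.25, adjusted p = 0.013), Yy1 (-0.33, adjusted p = 0.0137) and Polg2 (-0.31, adjusted p = 0.0348). Between the knockdowns 7 were higher and 0 lower in siMyT1, where 13.2% of all genes were higher. The 7 included Tfb1m, a methyltransferase of the mitochondrial ribosome, at 0.64 (adjusted p = 0.00171), and Pprc1, a coactivator of NRF-1, at 0.30 (adjusted p = 0.00477). Of 12 genes of coenzyme Q synthesis, 0 passed in siMyT1 against siControl, where 7.41% of all genes did. In siLSD1 Coq5 was higher and Coq10b lower (0.31 and -0.31, adjusted p = 0.0249 and 0.0179), where 3.97% and 4.93% of all genes were. Between the knockdowns 2 of the 12 were higher and 1 lower in siMyT1, where 13.2% and 5.58% of all genes were. None of the 8 carriers of adenine nucleotides and phosphate and of VDAC channels passed in any of the 3 comparisons.

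The mitochondrial ribosome, which makes the subunits encoded by mitochondrial DNA, had 76 genes on the array. In siMyT1 against siControl 6 were higher and 1 was lower, where 5.12% and 2.29% of all genes were. In siLSD1 2 were higher and 3 were lower, where 3.97% and 4.93% of all genes were. Between the knockdowns 19 were higher and 3 lower in siMyT1, where 13.2% of all genes were higher and 5.58% lower. Mrpl39 and Mrpl16 were higher in siMyT1 than in siControl by 0.36 and 0.45 (adjusted p = 0.00292 and 0.00323). Mrps2 averaged 14.8 ± 1.1 units in siMyT1, 10.6 ± 0.85 in siLSD1 and 13.6 ± 0.18 in siControl, and was lower in siLSD1 than in siControl, at -0.35 (adjusted p = 0.00742). Of 24 genes of protein import, siMyT1 had 4 higher and 2 lower relative to siControl, where 5.12% and 2.29% of all genes were. In siLSD1 0 were called, where 8.9% of all genes were. Timm21, which links the import channel to the respiratory chain, averaged 7.04 ± 0.54 units in siMyT1, 4.08 ± 0.20 in siLSD1 and 5.09 ± 0.67 in siControl, a difference of 0.46 in siMyT1 from siControl (adjusted p = 0.0126). Timm8b, a small chaperone of the space between the membranes, was lower in siMyT1 than in siControl, at -0.45 (adjusted p = 0.00874). These counts stand beside the shares of all genes given above for each comparison and direction.

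Probe sets not used above that carry a symbol of the selection were fitted together with all 45037 probe sets other than controls. There were 99 of them, which carry such a symbol alone or with others, and a few belong to genes not among the 90. Of the 99, 0 were higher and 1 was lower in siMyT1 against siControl, where 3.24% of all probe sets passed in either direction. In siLSD1 against siControl 5 were higher and 2 lower, where 5.05% passed in either direction. Between the knockdowns 3 were higher and 10 lower in siMyT1, where 11.2% passed in either direction. No share by direction is given for all probe sets, so the counts by direction have no such value beside them. A total of 8 symbols occurred only on probe sets shared with a paralogue, pseudogene or neighbour and are therefore not among the 90. Of these, the probe set of Ndufs6 and Ndufs6b differed from siControl by 0.01 in siMyT1 and 0.02 in siLSD1, and the brighter one of Ndufa11 and Ndufa11b by -0.15 and 0.15 (adjusted p = 0.504 and 0.483). Of the 90 genes, 18 were read by probe sets that may bind several transcripts.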

How the data were processed

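RNA of 9 Neuro2a samples was hybridised to 1-colour mouse arrays after biotin labelling, per the labels' protocols. The authors deposited intensities of 45101 probe sets per array, on a linear scale; how these deposited intensities were summarised, background-corrected and scaled is not given in the sources used here, so what 1 unit stands for is unknown. Probe sets were named from the platform annotation, in which 34945 had a single symbol, and each gene was read by its probe set with the highest mean over the 9 arrays, which gave 18193 genes.

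Values were analysed as log2(value + 0.196 deposited units), where 0.196 is a pseudocount of 32 after 1 constant for all arrays (163.56) sets the mean over arrays of the 2% trimmed mean to 500. Fold changes on this scale understate those of dim genes. A limma 3.58.1 model (R 4.3.3) of the 3 group means over all genes, with an intensity trend and 6 residual and 6.84 prior degrees of freedom, gave two-sided p-values, corrected across the 18193 genes with the Benjamini-Hochberg procedure (threshold 0.05). An exact test of 3 arrays against 3 could not go below p = 0.1. The number of arrays limits the precision. The script was tested on simulated data.

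The 90 members, the 8 lists and the markers were chosen with earlier results of these data known. The text names the siRNA targets, every member past the threshold in any comparison, the extreme members of each complex in each direction against siControl, the isoform groups, the 4 Sdh genes, and up to 3 called genes per list and comparison, with a few more members given as values beside them that were chosen after their values were seen. Alternatives were quantile normalization, median centring, cyclic loess, a pseudocount of 1 or 100, removal of dim genes, other choices of probe set, fits of the compared groups only, no trend, array weights, a replicate block, and leaving out each array. Same-numbered samples of different groups did not deviate together (r between -0.03 and 0.04 over 9 pairs), and 0 pairs of arrays were identical. Within-group correlations of arrays were 0.992 to 0.994. Promoters came from the RefSeq table of GRCm38.p6.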

Additional observations from a re-analysis of the deposited data

Results flagged for a closer look

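Second probe sets of 6 genes passed the threshold against siControl in a fit over all probe sets and were not used in the comparisons above. In siMyT1 a second probe set of Atp5k gave a log2 difference of -0.27 (limma adjusted p = 0.0458), beside -0.24 for the probe set used. In siLSD1 the 2 other probe sets of Cox5a gave -0.54 and -0.42 (adjusted p = 0.0028 and 0.00492), in the same direction as the probe set used.

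The remaining 5 were higher in siLSD1 where the probe set used was not called. A second probe set of Ndufa12, a complex I subunit, gave 0.32 (adjusted p = 0.00965), beside 0.19 for the one used. A dim probe set of Ndufs4 gave 0.44 (adjusted p = 0.0154), beside 0.14, and one of Sdha gave 0.28 (adjusted p = 0.039), beside 0.09. Both probe sets shared by Ndufb4 and its copies Ndufb4b and Ndufb4c gave 0.29 and 0.38 (adjusted p = 0.0123 and 0.00951). They averaged 30.4 and 20.3 units in siLSD1 and 24.9 and 15.6 in siControl, while the single-symbol probe set of Ndufb4 averaged 0.259 and 0.257 units and differed by 0.00. Which of the 3 copies the shared probe sets read was not tested.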

How the results depend on the processing

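Of the genes called among the 90, 0 reversed under the 21 alternative settings, 18 for each comparison. In siMyT1 against siControl, the lower calls (2) became 11 with quantile normalization, 9 with cyclic loess, 4 with the filter on dim probe sets and with array weights, 1 with median centring, without the intensity trend and with the replicate block, and 1 to 2 without single arrays. The higher calls (2) became 0 with the mean of all probe sets and without the trend, 1 in a fit of the compared groups only, and 1 to 3 without single arrays. In siLSD1 against siControl, the higher calls (0) became 4 with quantile normalization, 1 with median centring, 7 with cyclic loess, 5 with array weights and 0 to 1 without single arrays, and the lower call (1) became 2, 2 and 3 with quantile normalization, cyclic loess and array weights. The median of the 90 genes, 0.03, was 0.11 with median centring, while that of all genes went from -0.03 to 0.05. In siMyT1 against siLSD1, the lower calls (9) became 21 with quantile normalization, 19 with cyclic loess, 3 without the trend and 4 to 10 without single arrays. The higher calls (9) became 2 with median centring, 5 with the mean of all probe sets and with the replicate block, 3 without the trend and 1 to 9 without single arrays. The median of the 90, -0.01, was -0.13 with median centring, while that of all genes went from 0.09 to -0.04. The main calls kept under quantile normalization, median centring and cyclic loess were 4, 3 and 4 of 4 in siMyT1 against siControl, 1 of 1 each time in siLSD1, and 17, 11 and 17 of 18 between the knockdowns. The replicate block changed the lower calls in siMyT1 against siControl to 1 and gave 5 higher and 7 lower calls between the knockdowns. The shares of all genes called are given above for the 3 scalings. For the other settings no such share is given here, so those counts are not read as results about the 90. Causes were not tested. Dim genes such as Cox6b2 and Cox8b lay under the pseudocount, so the log2 scale used understates changes in them.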
